A study of Mus musculus with 2 samples.

Results

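The 32 genes described here encode lysosomal hydrolases, their activators, lysosomal membrane proteins and the proton pump of the lysosome, together with the transcription factors Tfeb and Tfe3. They were taken by gene symbol, each matched 1 row, and they are 32 of the 26124 genes counted in the series. No measured value entered the choice of the symbols, which was made with earlier results of these data known. Spleen cells were enriched for macrophages with beads carrying an antibody to F4/80, a surface protein of mouse macrophages, and were sequenced by droplet scRNA-seq from the 3′ ends of transcripts. The study used these cells to look at spleen macrophages in sickle cell disease (SCD), in which red cells break down early and load the spleen with heme. Both mice were 12 to 16 weeks old and untreated, and there was 1 mouse and 1 library per group.

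By the labels, both mice were homozygous for Hbatm1Paz, a targeted allele of the mouse α-globin genes, and both carried Tg(HBA-HBBs)41Paz, a transgene for human α-globin and sickle β-globin. The mouse called wild-type was hemizygous for the transgene and heterozygous for Hbbtm1Tow, a deletion of mouse β-globin, and does not sickle per the labels. It is thus not free of the modified alleles. The SCD mouse was homozygous for the transgene and for Hbbtm1Tow. The β-globin genes went against these labels. Hbb-bs, a mouse β-globin that homozygous Hbbtm1Tow removes, stood at 124 CPM (UMIs of a gene per 1000000 UMIs of the cells) in erythroid-like cells of the wild-type-labelled library and at 42049.7 CPM in those of the SCD-labelled library. Mouse Hba-a1, an α-globin gene, was counted in these cells in both libraries, at 22049 and 25794 CPM, although both mice are labelled homozygous for the α-globin allele. Whether reads of the human transgene were counted in it was not tested. The libraries are therefore named only by their labels, wild-type-labelled and SCD-labelled, and every direction below rests on these labels. Whether the libraries were exchanged was not tested, and an exchange would reverse every direction below.

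The wild-type-labelled library held 145953464 UMIs in 24144 barcodes, of which 19418 cells were kept, and the SCD-labelled library held 73986356 UMIs in 15442 barcodes, of which 12279 were kept. Median depth was 4116 and 4571 UMIs per kept cell. The libraries shared 65 barcodes among kept cells. Cells were clustered without the 32 genes. Clusters with markers of red pulp macrophages (Spic, Vcam1, C1qa and others) were called RPM-like, and those that also had erythroid markers were called EBI-like, after the erythroblastic islands in which macrophages hold maturing red cells. The RPM-like class had 4746 cells in the wild-type-labelled library and 1667 in that labelled SCD, with median depths of 2137 and 3986 UMIs. These were different clusters. Cluster 6, led by Marco, and cluster 4, led by Adam33, held 3522 and 1172 of the cells of the wild-type-labelled library, whereas cluster 23, led by Rgs1 and Adamdec1, held 1566 of those labelled SCD.

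Lysosomes are acidic compartments in which cells degrade proteins, lipids, glycans and nucleic acids. Soluble hydrolases do the cutting, small activator proteins present lipids to them, membrane proteins shield and connect the compartment, and a vacuolar ATPase pumps in the protons that the enzymes need. Tfeb and Tfe3 switch on many of these genes by binding to E-box motifs in their promoters, in a common variant known as the CLEAR element. Red pulp macrophages engulf aged red cells and degrade them in such compartments, from which heme and iron are exported.

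The CLEAR motif was searched in RefSeq promoter windows (GRCm38.p6, 250 bases before to 50 after each gene's start), because the list holds both the factors and their known type of target. Of the 32 genes, 28 had a window, and Npc1, Asah1, Atp6v0d2 and Atp6v1h had none in the table. The letters TCACGTGA, which read the same on both strands, were present in windows of 4 of these 28 genes (14.3%) and of 304 of 27025 genes in the table (1.12%). The shorter CACGTG, which every TCACGTGA contains, was present for 8 of 28 genes (28.6%) and for 2187 of 27025 (8.09%). The 5 matches began before the start on which the RefSeq window is set, in the channel gene Mcoln1 at chr8:3500462-3500491 (plus strand, 46 bases from the first motif base to the start), in the pump genes Atp6v0d1 at chr8:105566050-105566079 (minus strand, 4 bases, so that the motif reaches past the start) and Atp6v1a at chr16:44139373-44139402 (minus strand, 132 bases), and 2 times in Gla at chrX:134601215-134601244 and chrX:134601182-134601211 (minus strand, 228 and 195 bases). By the GENCODE gene bounds the Mcoln1 and Atp6v1a matches lie within the gene, and the others before it. Each is shown on its gene's strand with the motif in capitals and up to 11 bases on either side.
Mcoln1: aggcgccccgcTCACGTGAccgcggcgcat
Atp6v0d1: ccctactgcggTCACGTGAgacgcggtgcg
Atp6v1a: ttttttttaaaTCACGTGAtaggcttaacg
Gla, farther match: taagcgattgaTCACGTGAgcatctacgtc
Gla, nearer match: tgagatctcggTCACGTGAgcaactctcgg
These are matches of letters, and no binding was measured. The log2 ratios of the 4 genes in RPM-like cells, given below, were -0.03 for Mcoln1, -0.57 for Atp6v0d1, -0.68 for Atp6v1a and -1.76 for Gla. Of the 61 other lysosomal genes described below, 47 had a window. TCACGTGA was present for 8 of these (17.0%) and CACGTG for 15 (31.9%), so the shares are not particular to the 32 genes.

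In RPM-like cells the 32 genes together took 27829 CPM (95% exact Poisson interval 27749.7 to 27908) in the wild-type-labelled library and 18693 CPM (18596 to 18791) in the SCD-labelled library. The ratio of the SCD-labelled library to that labelled wild-type was 0.672, a log2 ratio of -0.57 (exact conditional interval -0.58 to -0.57). With 1 mouse per group no test of the conditions was possible, and all intervals cover counting error only. In what follows a pair of CPM values gives the wild-type-labelled library first and the SCD-labelled library second, and log2 ratios are of SCD to wild-type as labelled. All 32 genes had at least 100 UMIs in RPM-like cells over both libraries, and their median log2 ratio was -0.38. Of these 32, 12 were lower by at least 1.5-fold in the SCD-labelled library, beside 9.34% of the 10016 genes with at least 100 UMIs, and 1 was higher by at least 1.5-fold, beside 23.7% of all genes. With cells taken by their Spic and Vcam1 UMIs in place of clusters, 6 were lower by that much, and the share of all genes was not computed there. The median of all genes was 0.20 on the log2 scale, so that the typical gene was higher in the SCD-labelled library. Relative to that shift 27 of the 32 lay below, beside 5008 of 10016 genes by the definition of a median. By 1.5-fold 16 were then lower and 0 higher, beside 1492 and 1491 of the 10016 genes.

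**Figure D1:**
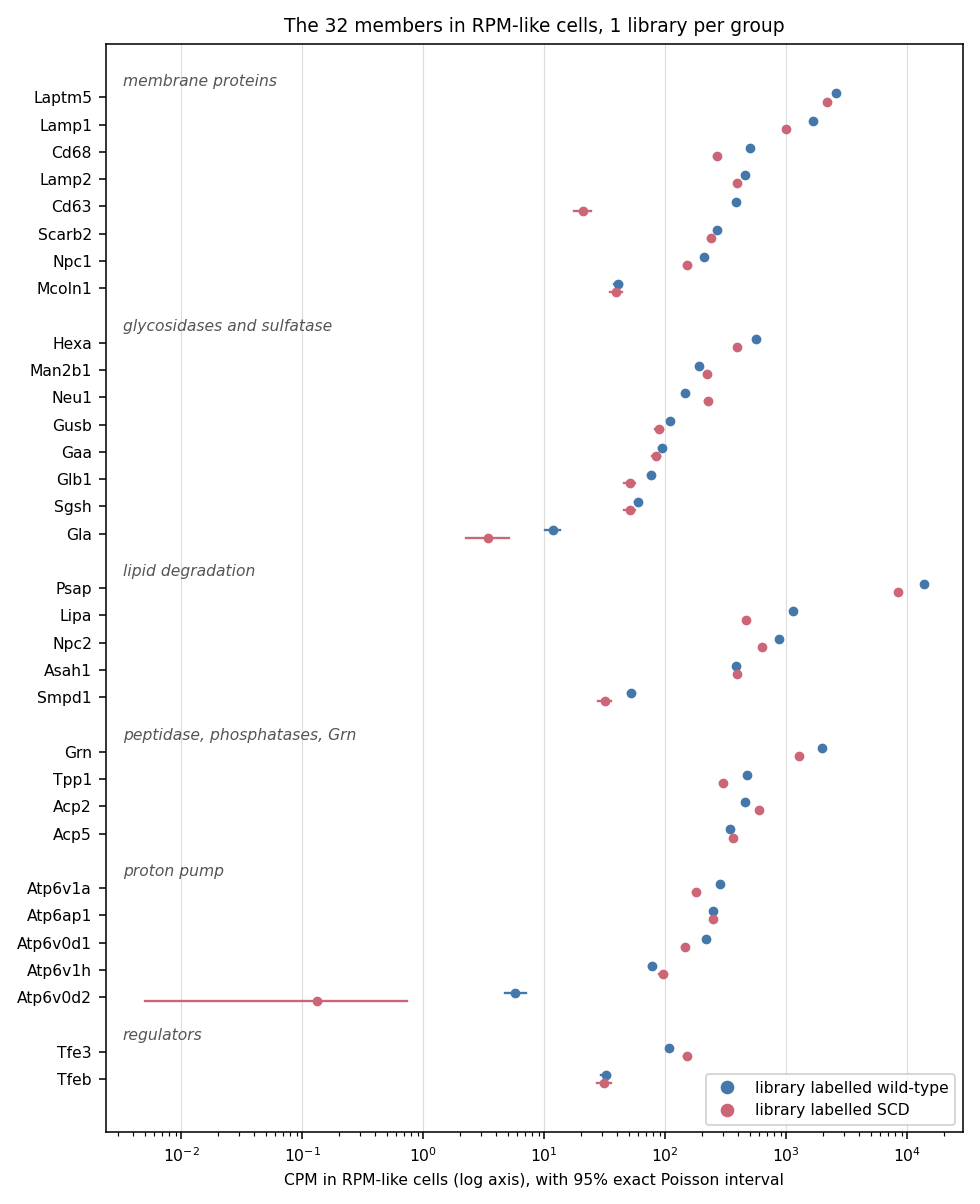
CPM of each of the 32 genes in RPM-like cells on a log axis, in the wild-type-labelled library (blue) and the SCD-labelled library (red), grouped by role, with bars for 95% exact Poisson intervals. Cd63 and Atp6v0d2 show the widest gaps, and Neu1 lies to the right in the SCD-labelled library.

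The sum was carried by few genes. Psap, the precursor of the saposins that present sphingolipids to hydrolases, gave 49.5% of the summed UMIs in the wild-type-labelled library and 44.7% in that labelled SCD. Together with Laptm5, Grn, Lamp1 and Lipa it gave 73.6% on average over the libraries. Psap alone was at 13769.5 and 8365 CPM (log2 ratio -0.72, -0.73 to -0.71). Without Psap the log2 ratio of the sum was -0.44.

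The genes of lipid degradation were lower as a group, at 16221 and 9886 CPM (summed log2 ratio -0.71). Besides Psap, 2 of the other 4 were lower by 1.5-fold, beside 9.34% of all genes. Lipa, the acid lipase that cleaves cholesteryl esters and triglycerides, was at 1143 and 468 CPM (-1.29, -1.34 to -1.24). Smpd1, acid sphingomyelinase, was at 52.6 and 31.6 CPM (-0.74). Npc2, which hands cholesterol on to Npc1, was at 872 and 629 CPM (-0.47), within 1.5-fold. Asah1, acid ceramidase, was at 384 and 393 CPM (0.03, -0.03 to 0.10), the one gene of this group without a lower value in the SCD-labelled library.

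Of the 8 membrane proteins 3 were lower by 1.5-fold and 0 higher, beside 9.34% and 23.7% of all genes. Cd63, a tetraspanin of late endosomes and lysosomes, was at 386 and 20.8 CPM (-4.22, -4.45 to -3.99), and 0.240% of all genes had a lower ratio. Cd68, a heavily glycosylated macrophage protein, was at 502 and 267 CPM (-0.91). Lamp1, a main component of the lysosomal membrane, was at 1672 CPM in the wild-type-labelled library and 0.598 times that in the other (-0.74), whereas its relative Lamp2 was at 457 and 393 CPM (-0.22). Laptm5, a lysosomal protein of blood cells, was at 2596 and 2190.2 CPM (-0.25). The cholesterol exporter Npc1 was at 211 and 153 CPM (-0.46) and Scarb2, the receptor that carries glucocerebrosidase to lysosomes, at 266 and 238 CPM (-0.16). Mcoln1, a calcium channel, was at 40.5 and 39.6 CPM (-0.03, -0.23 to 0.17), and its intervals overlapped.

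Among the 8 enzymes that trim glycans, 2 were lower and 1 was higher by 1.5-fold, beside 9.34% and 23.7% of all genes. In a group this small such counts do not set it apart from all genes. The group's sum differed less than the others, at 1246 and 1112 CPM (-0.17). Gla, α-galactosidase A, was at 11.8 and 3.47 CPM (-1.76, -2.41 to -1.17, from 201 and 26 UMIs). Glb1, β-galactosidase, was at 76.7 and 50.8 CPM (-0.59), just past 1.5-fold. Tmppe lies within Glb1 on the same strand, and their reads may not be separable. Hexa, a subunit of β-hexosaminidase, was at 559 and 389 CPM (-0.52). Gusb, β-glucuronidase, was at 109.8 and 88.8 CPM (-0.31), Sgsh, heparan N-sulfatase, at 59.6 and 50.9 CPM (-0.23), and Gaa, acid α-glucosidase, at 93.8 and 83.6 CPM (-0.17). Man2b1, acid α-mannosidase, was slightly higher, at 191 and 221 CPM (0.21). Neu1, the lysosomal sialidase, was the gene higher by 1.5-fold, at 145 and 224 CPM (0.63, 0.54 to 0.72), and relative to the median of all genes its ratio was 0.44, below that limit.

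The remaining soluble proteins were split. Tpp1, a tripeptidyl peptidase, was at 477 and 299 CPM (-0.67) and Grn, the precursor of the granulins, at 1977 and 1283 CPM (-0.62), both lower by 1.5-fold. The acid phosphatases were not lower: Acp2 was at 459.7 and 595 CPM (0.37, 0.32 to 0.43) and Acp5, the tartrate-resistant form, at 341 and 362 CPM (0.09, 0.02 to 0.15).

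Of the 5 proton pump genes 2 were lower by 1.5-fold, beside 9.34% of all genes. Atp6v0d2, a subunit form found in osteoclasts and some macrophages, had 99 UMIs in the wild-type-labelled library and 1 in that labelled SCD (5.79 and 0.133 CPM, -5.44, -10.76 to -2.93). It passed the limit of 100 UMIs through the wild-type-labelled library. Atp6v1a, the catalytic subunit, was at 286 and 179 CPM (-0.68), and Atp6v0d1, the widely used form of the d subunit, at 218 and 147 CPM (-0.57), just inside 1.5-fold. Within clusters 6 and 23, given below, Atp6v1a was not lower by 1.5-fold. Atp6v1h was at 77.9 and 95.8 CPM (0.30, 0.17 to 0.43), and the accessory protein Atp6ap1 was at 251 and 250.5 CPM (interval of the log2 ratio -0.08 to 0.08).

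Over the whole RPM-like class neither of the 2 regulators was lower by 1.5-fold. Tfeb was at 32.2 and 31.2 CPM (-0.04, -0.27 to 0.18) and Tfe3 at 108 and 152 CPM (0.50, 0.39 to 0.60). Relative to the median of all genes the log2 ratios were -0.24 for Tfeb and 0.30 for Tfe3. Within clusters 6 and 23, given below, Tfe3 was not higher in the SCD-labelled library. Both act largely through their entry into the nucleus, which RNA does not measure.

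**Figure D2:**
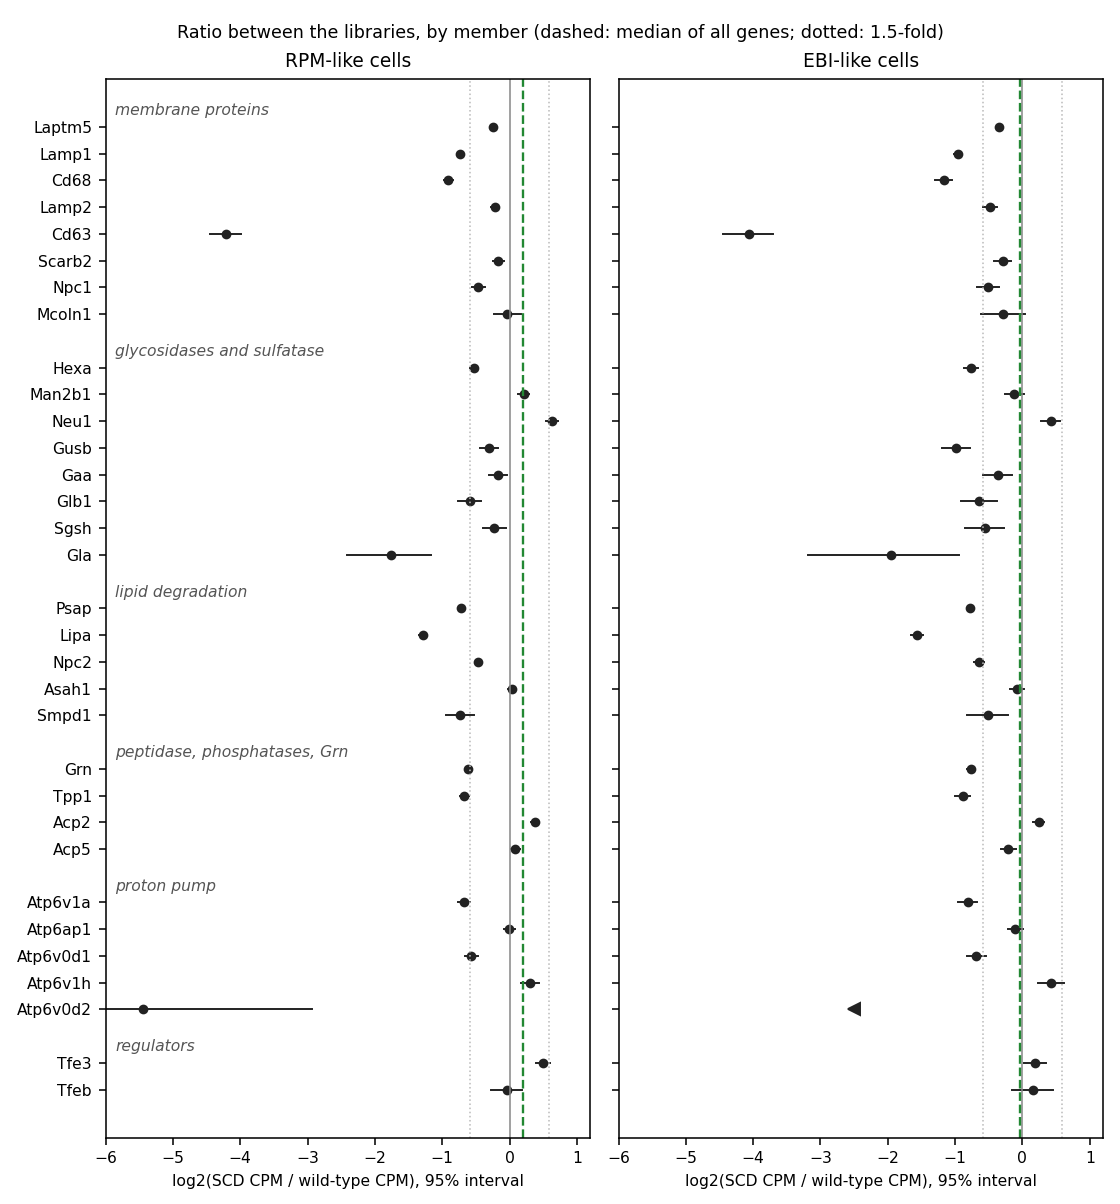
Log2 ratio of CPM, SCD-labelled library to wild-type-labelled library, for each gene in RPM-like cells (left) and EBI-like cells (right), with 95% exact conditional intervals. The dashed line is the median of all genes (0.20 and -0.03), dotted lines mark 1.5-fold, the triangle is a bound for a gene with 0 UMIs, and the axis ends at -6, inside the interval of Atp6v0d2. The 5 genes with the largest differences in RPM-like cells (Atp6v0d2, Cd63, Gla, Lipa and Cd68) all lie to the left in both panels.

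Since the libraries filled different clusters, the level was also set within clusters. In the wild-type-labelled library the sum was 26911 CPM in cluster 4 and 29019.5 CPM in cluster 6, and in cluster 23 of the SCD-labelled library it was 18779 CPM. Of cluster 23, 52 cells came from the wild-type-labelled library, with a sum of 24962 CPM. Their median depth was low, at 1275.5 UMIs beside 4161 in the cells labelled SCD. Within this cluster the log2 ratio was -0.41 (-0.47 to -0.35). Within cluster 6, which held 89 cells labelled SCD of low depth (median 943 UMIs), it was -1.17. Cd63 was lower in the SCD-labelled library within both clusters, with log2 ratios of -3.39 in cluster 23 and -2.03 in cluster 6. Neu1 was not higher within either: in cluster 23 it was at 240.0 and 227 CPM (-0.08, -0.67 to 0.58) and in cluster 6 its log2 ratio was -0.52 (-1.65 to 0.41). Cd68 was at 271 and 269 CPM (-0.01, -0.57 to 0.60) in cluster 23 and at 499.7 and 192 CPM (-1.38, -2.10 to -0.75) in cluster 6. Tfe3, higher over the class, was at 209 and 153 CPM in cluster 23 and at 82.2 and 67.0 CPM in cluster 6. Atp6v1a, lower over the class, was at 157 and 177 CPM in cluster 23 and at 327 and 287 CPM in cluster 6. In each cluster 1 library gave few cells, so values of single genes there rest on few UMIs.

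Differences in depth were removed by thinning each cell to 1000 UMIs, which left out 690 of the RPM-like cells labelled wild-type and 167 of those labelled SCD. The median RPM-like cell then held 27 UMIs of the 32 genes in the wild-type-labelled library, with quartiles of 22 and 33, and 18 in that labelled SCD, with quartiles of 14 and 22. The upper quartile of the SCD-labelled library thus met the lower quartile of the other. In B cells the medians were 6 and 4. The difference was spread over the cells and was not confined to a few with very high values.

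**Figure D3:**
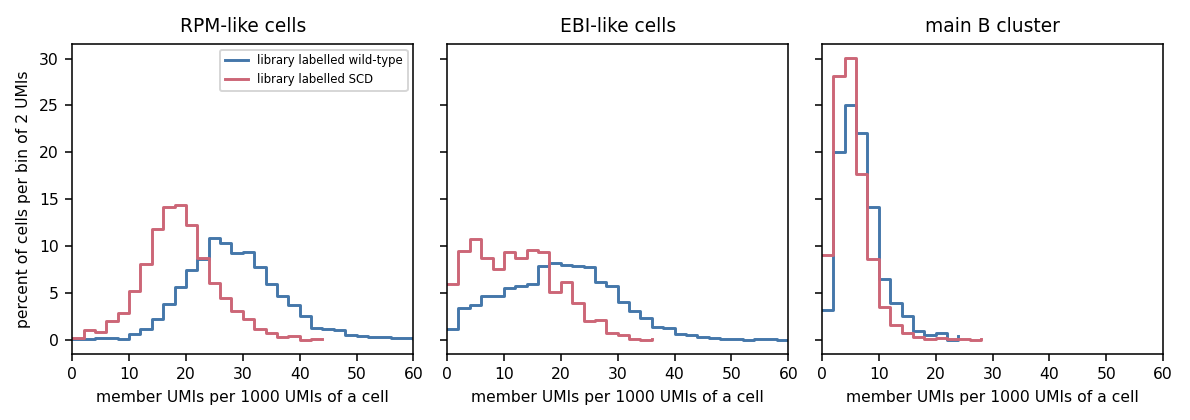
Percent of cells (vertical axis) with a given number of UMIs of the 32 genes after thinning to 1000 UMIs per cell (horizontal axis, bins of 2), for RPM-like cells, EBI-like cells and the main B lymphocyte-like cluster, in each library. In RPM-like cells the distribution lies lower in the SCD-labelled library, with medians of 27 and 18.

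The same shares show how far single genes reached. After thinning, Cd63 was found in 30.4% of RPM-like cells labelled wild-type (exact binomial interval 29.0 to 31.8) and in 2.53% of those labelled SCD (1.80 to 3.46), against 56.1% and 7.98% at full depth. Among cells of the main B cluster the shares were 5.89% and 0.292%, at median depths of 2240.0 and 2895 UMIs. Lipa was found in 61.7% and 29.8% of RPM-like cells and in 13.1% and 5.55% of B cells. Neu1 was found in 12.1% and 19.6% of RPM-like cells and in 3.68% and 5.08% of B cells. Tfeb was found in 2.96% and 3.07% of RPM-like cells and in 5.71% and 4.84% of B cells, so that its RPM-like shares did not stand above this level.

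Free RNA in the droplets gives all cells some UMIs of macrophage genes, and its level was read from the main B lymphocyte-like cluster (547 and 1729 cells). The 6 genes that B cells do not use (C1qa, C1qb, C1qc, Vcam1, Spic and Adgre1) stood there at 12.3% to 16.6% of their level in RPM-like cells in the wild-type-labelled library, and at 8.27% to 10.7% in that labelled SCD. The 32 genes together stood at 6714 and 4781 CPM in these B cells, and the RPM-like level was 4.15-fold and 3.91-fold above it. Over the genes with at least 100 UMIs, the median B-cell level was 36.3% of the RPM-like level (32 genes) and 28.4% (30 genes). Cd68, Acp2 and, in the wild-type-labelled library, Lipa were within the range or below the top of the range of the macrophage genes. The intervals of 26 and 28 genes lay above that range, among them Laptm5 at 39.2% and 45.5% and Psap at 19.9% and 19.1%. Tfeb was higher in B cells than in RPM-like cells, at 158% and 177% of that level. With the B-cell level subtracted in each library, the log2 ratio of the sum in RPM-like cells was -0.60.

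RPM-like cells also had the highest summed level of the named classes in both libraries. In the wild-type-labelled library they were followed by EBI-like cells at 21894 CPM, Ly6c-low monocyte-like cells at 19579 CPM and Ly6c-high monocyte-like cells at 18945 CPM. In the SCD-labelled library the order after RPM-like cells was Ly6c-high monocyte-like at 15846 CPM, Ly6c-low monocyte-like at 14466 CPM and EBI-like at 13575 CPM. Neighbours in these orders had intervals that did not overlap. Clusters left unnamed, with 3896 (20.1%) and 4490 (36.6%) of the kept cells, are not in these orders. Of the unnamed clusters, cluster 10 was at 20291 CPM in the wild-type-labelled library, above both monocyte-like classes. Of the single genes, 22 were at their highest in RPM-like cells in the wild-type-labelled library and 19 in that labelled SCD, among classes with at least 50 cells. The share of all genes that were highest in RPM-like cells was not computed, so these counts have no background beside them. Lamp2, Gusb and Npc2 were highest in Ly6c-high monocyte-like cells in both libraries, and Man2b1 and Laptm5 in Ly6c-low monocyte-like cells.

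**Figure D4:**
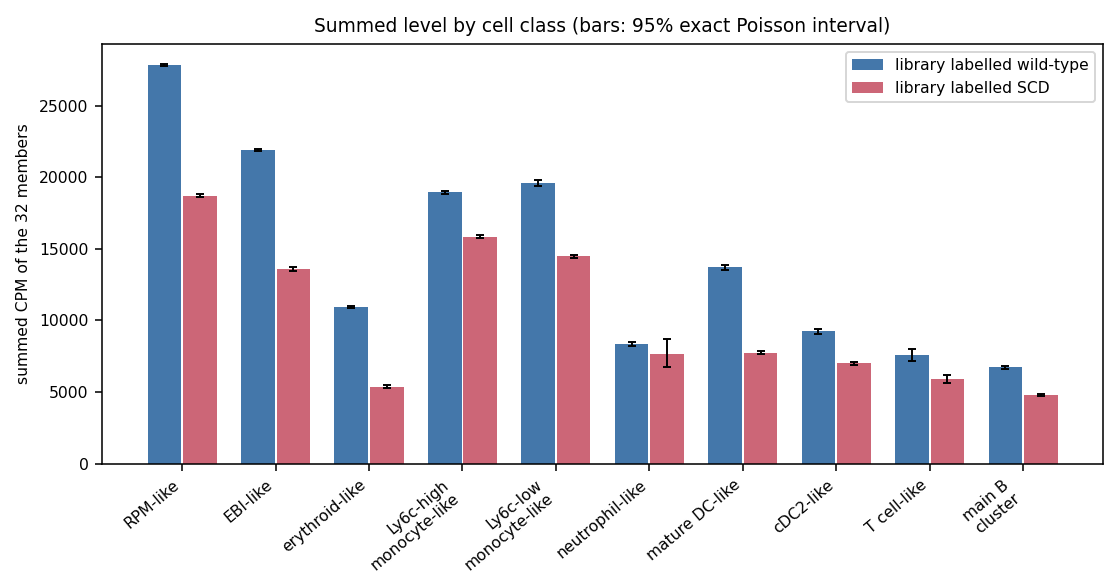
Summed CPM of the 32 genes by cell class in the wild-type-labelled library (blue) and the SCD-labelled library (red), with bars for 95% exact Poisson intervals. RPM-like cells are the highest class in both libraries (27829 and 18693 CPM), and every class shown is lower in the SCD-labelled library, with overlapping intervals in the neutrophil-like cells (278 and 13 cells).

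The lower sum in the SCD-labelled library was also found in classes not named as macrophages. Its log2 ratio was -0.49 in the main B cluster, -0.26 in Ly6c-high and -0.44 in Ly6c-low monocyte-like cells, -0.82 in mature DC-like cells and -1.03 in erythroid-like cells. Over all kept cells it was -0.60. Of the genes with at least 100 UMIs in a class, 21 of 31 were lower by 1.5-fold in erythroid-like cells (median -0.80), beside 16.4% of all genes, and 14 of 28 in mature DC-like cells (median -0.58), beside 12.3%. In Ly6c-high monocyte-like cells these were 9 of 30 beside 9.46%, in Ly6c-low monocyte-like cells 9 of 30 beside 5.72%, and in the main B cluster 7 of 30 beside 4.47%. In each of these 5 classes fewer than 32 genes passed the limit, and the genes left out are those of few UMIs. In erythroid-like cells some of those counted, such as Gaa (818 and 37 UMIs) and Glb1 (698 and 25 UMIs), passed it through the wild-type-labelled library. Part of each level is free RNA, which was also lower in the SCD-labelled library. Erythroid-like cells held macrophage RNA above the B-cell level. Vcam1 was at 2814 and 1518 CPM there, beside 1136 and 674 CPM in the main B cluster. Spic was at 330 and 288 CPM, beside 126 and 165 CPM. The share of free RNA and of this macrophage RNA in these differences was not tested, so a fall outside macrophages is not shown.

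The 32 genes in EBI-like cells (4821 and 854 cells) were lower in the SCD-labelled library as well. Their sum was 21894 CPM (21832 to 21955) and 13575 CPM (13452 to 13698), a log2 ratio of -0.69 (-0.70 to -0.68). The libraries filled different clusters here too: all but 12 of the cells labelled wild-type lay in clusters 2, 5, 16 and 19 (929 to 1422 cells each), whereas 629 of the 854 labelled SCD lay in cluster 24, which held those 12. Within cluster 2 (1358 and 172 cells) the sum was 17076 and 7196 CPM (-1.25, -1.29 to -1.21), and in cluster 24 it was 19042 CPM (17361 to 20842) in the 12 cells and 15299 CPM (15152 to 15447) in the 629. Of the 32 genes 15 were lower by 1.5-fold, beside 16.5% of 9824 genes, and 0 were higher, beside 12.7%, while the median was -0.53 beside -0.03 for all genes. Cd63 was at 304 and 18.2 CPM (-4.06), Lipa at 879 and 298 CPM (-1.56), Gla at 8.91 and 2.31 CPM (-1.95), Cd68 at 385 and 171 CPM (-1.17) and Lamp1 at 1357 and 698 CPM (-0.96). Atp6v0d2 had 111 UMIs in the wild-type-labelled library and 0 in that labelled SCD, at least 5.69-fold lower when 0 is taken to allow 3 counts in the library. It is among the 15 and passed the limit of 100 UMIs through the wild-type-labelled library here as well, as did Gla (201 and 8 UMIs) and Cd63 (6854 and 63 UMIs). Gusb was lower here (112 and 56.5 CPM, -0.98, against -0.31 in RPM-like cells). The genes above 0 were Neu1 (0.42), Atp6v1h (0.43), Acp2 (0.25), Tfe3 (0.19) and Tfeb (0.15). Mouse hemoglobin took part of the total here: Hbb-bs alone was at 85.0 CPM and 85201 CPM, and with hemoglobin, mitochondrial, ribosomal-protein and immunoglobulin UMIs left out of the totals the log2 ratio of the sum was -0.54.

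Cd63 differed from the other genes across the classes. In the SCD-labelled library it was under 50 CPM in EBI-like, RPM-like, monocyte-like, erythroid-like, cDC2-like, T cell-like and B cells, with values from 4.22 CPM in the main B cluster to 44.8 CPM in 87 T cell-like cells, while in the wild-type-labelled library the same classes held 67.8 to 386 CPM. In mature DC-like cells (452 and 671 cells), which carry Ccr7 and Fscn1, it was at 302 and 327 CPM. The 13 neutrophil-like cells labelled SCD held 6 UMIs (187 CPM, 68.7 to 408), whose interval overlapped that of the other library (306 CPM, 282 to 331). After thinning it was found in 23.3% and 25.8% of mature DC-like cells. Other genes of the list were lower there in the SCD-labelled library, with Psap at 5907 and 2373 CPM, Lipa at 453 and 130.1 CPM and Grn at 832 and 288 CPM. Leaving out cells with a barcode found in both libraries left Cd63 at 386 and 20.6 CPM in RPM-like cells.

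The other genes named for their share or difference varied with the class as follows. Psap ranged from 13769.5 CPM in RPM-like to 2737 CPM in T cell-like cells in the wild-type-labelled library, and from 8365 to 1595 CPM (main B cluster) in that labelled SCD. Lipa was lower in the SCD-labelled library in every named class, for instance at 408 and 146 CPM in Ly6c-high and at 747 and 243 CPM in Ly6c-low monocyte-like cells. Laptm5 differed little in monocyte-like cells (1971 and 1935 CPM in Ly6c-high, 2635 and 2574 CPM in Ly6c-low) and was at 1016 and 996 CPM in the main B cluster. Lamp1 was at 1215 and 954 CPM in Ly6c-high monocyte-like cells and at 914 and 621 CPM in mature DC-like cells, and Grn at 1161 and 643 CPM in the former. Cd68 was at 268 and 211 CPM and Gla at 11.3 and 3.58 CPM in Ly6c-high monocyte-like cells. Atp6v1a was at 251 and 186 CPM and Atp6v0d1 at 170.2 and 133 CPM in these cells, whereas Atp6ap1 (257 and 249 CPM) and Atp6v1h (59.8 and 59.2 CPM) were nearly level. Atp6v0d2 was under 6 CPM in every class. Tfeb was highest in mature DC-like cells, at 64.0 and 89.1 CPM, and at 50.9 and 55.2 CPM in the main B cluster. Tfe3 lay between 41.4 and 115 CPM in the wild-type-labelled library, highest in mature DC-like cells, and between 37.7 and 152 CPM in that labelled SCD.

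**Figure D5:**
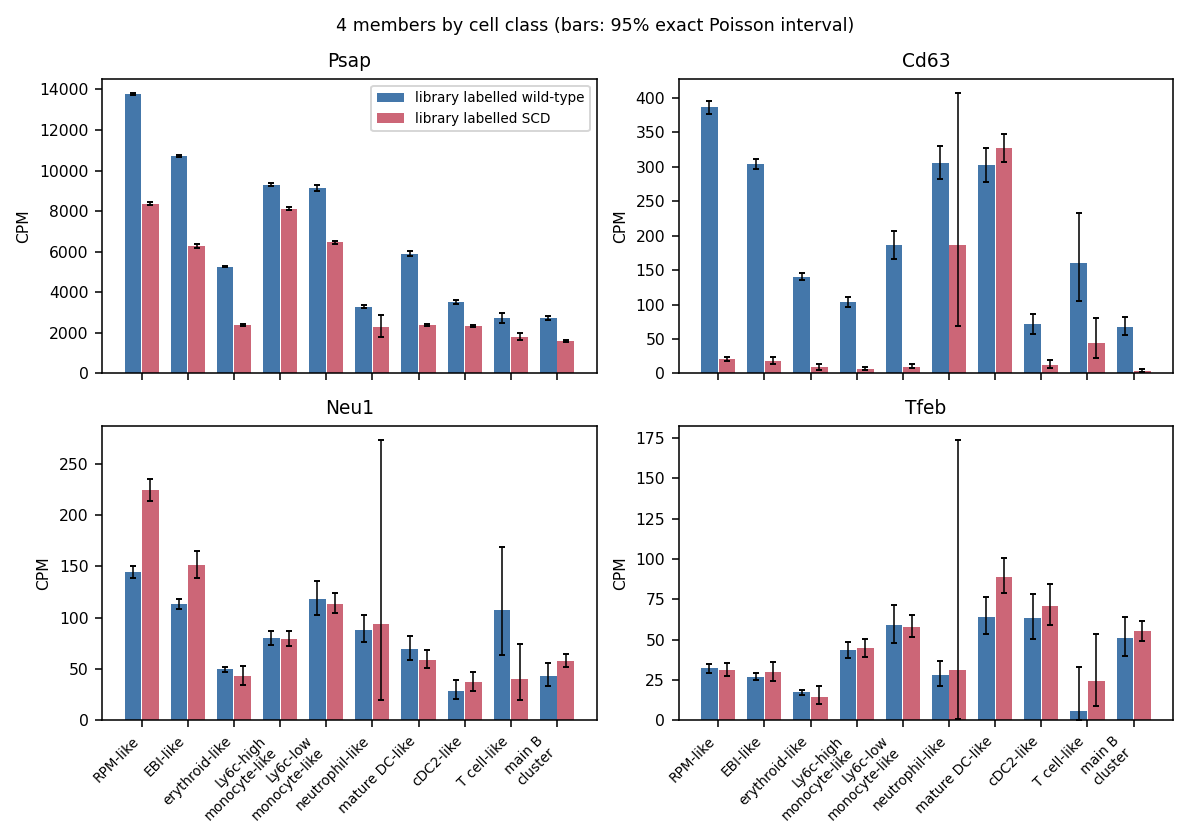
CPM of Psap, Cd63, Neu1 and Tfeb by cell class in the wild-type-labelled library (blue) and the SCD-labelled library (red), with bars for 95% exact Poisson intervals. Cd63 is at 302 and 327 CPM in mature DC-like cells, beside 386 and 20.8 CPM in RPM-like cells, and Tfeb is higher in B and mature DC-like cells than in RPM-like cells.

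A wider list of 61 lysosomal genes that are not among the 32 gave smaller differences in RPM-like cells, with a median log2 ratio of -0.13, 11 lower by 1.5-fold (9.34% of all genes were) and 4 higher (23.7% of all genes). Some of the group counts that follow lie near or below these shares. Of its V-ATPase subunits 4 of 11 were lower and 0 higher (median -0.44), of its hydrolases and activators 4 of 21 were lower and 3 higher, and of its membrane proteins 1 of 17 in each direction. Of the 5 further regulators 1 was lower, and of the 7 genes that deliver hydrolases to lysosomes 1 was lower. Among the lowest ratios was that of Gpnmb, a membrane glycoprotein of lysosome-rich cells, at 18.9 and 0.267 CPM (324 and 2 UMIs, -6.15, -9.20 to -4.29). Others were those of Galns, a sulfatase, at 15.6 and 4.13 CPM (266 and 31 UMIs, -1.91), and Igf2r, a receptor for mannose 6-phosphate, at 77.0 and 26.5 CPM (-1.54). Gpnmb and Galns passed the limit of 100 UMIs through the wild-type-labelled library. Those higher were Arsb, a sulfatase, at 9.48 and 22.0 CPM (1.21), Mfsd8 at 14.6 and 22.4 CPM (0.62), and the ribonucleases Rnaset2b (1.06) and Rnaset2a (0.83), near-identical copies whose counts are uncertain. In EBI-like cells 16 of the 61 were lower, beside 16.5% of all genes, and 3 higher, beside 12.7%, with a median of -0.35 beside -0.03.

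Markers of other cells differed between the RPM-like cells of the libraries. The 10 erythroid markers summed to 487 and 95.2 CPM, all 10 lower in the SCD-labelled library. The 7 markers of Ly6c-low monocytes summed to 733 and 1511 CPM and the 5 of cDC1 to 685 and 1163 CPM, all higher in the SCD-labelled library and none at 0. The 7 B lymphocyte markers summed to 81.9 and 126 CPM and the 10 markers of RPM themselves to 24087 and 21686 CPM. Of these 10 RPM markers, 5 were higher in the SCD-labelled library, among them Spic at 1022 and 1673 CPM. Cd5l was lower there, at 3094 and 551 CPM. The part of these in the differences of the 32 genes was not tested, and the genotype, the mouse and the library cannot be told apart.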

How the data were processed

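Single-cell 3′ gene expression was measured in 1 F4/80-enriched spleen library per group. Per the paper's methods and the submitters' notes the authors aligned reads to GRCm38.p6 and assigned barcodes with Cell Ranger 4.0.0, whereas the file headers name 3.1.0, and the deposited values are raw UMI counts, not normalized. No sample was left out.

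Cells needed 500 to 5000 genes, with shares of mitochondrial UMIs under 15% and of ribosomal-protein UMIs under 30%. After scran 1.30.0 size factors (R 4.3.3), 2000 variable genes found in at least 20 cells, without the 32 genes, 61 other lysosomal genes, 7 genes of the study, hemoglobin and sex-linked genes, gave 30 components, 15 neighbours and Leiden clusters at resolution 1 (scanpy 1.11.5, igraph 0.11.9). A cluster was RPM-like where the median RPM marker stood at 4 times its level in the main B cluster or more and 3 markers at 2 times the remaining cells. It was EBI-like where the first of these held and the median erythroid marker stood at 2 times that B-cell level, with no need of the second. Clusters whose leading genes held more markers of another cell type than of their own were left unnamed, as were those that met no rule. The limit of 4 parted similar clusters. Cluster 2, called EBI-like, stood at 4.14 times that level, and cluster 8, called erythroid-like, at 3.84 times. Scrublet's threshold marked 0 cells labelled wild-type as doublets and 13.9% of those labelled SCD, and none were removed in the main setting. In the alternative without doublets, the 1712 marked cells labelled SCD were left out. Of the cells labelled wild-type, the 10% with the highest scores (2046 cells) were left out there.

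UMIs were summed per class and library as CPM. Intervals are 95% exact Poisson, conditional or binomial. A count of 0 was taken as 3 counts. Genes that overlap on the opposite strand (Lamp1, Hexa, Npc1, Grn, Acp2, Sgsh and Atp6v1h) were taken as counted. The ratio calculation was tested on simulated data. Members, lists, markers and limits were chosen with earlier results of these data known. All members are named. Levels across classes are given for the 5 with the largest share of UMIs, the 5 with the largest difference, the pump genes and the regulators, and of the wider list the 4 highest and 4 lowest ratios past 1.5-fold, of which 1 is not reported here. Neu1, named across classes, and values within clusters were added after the data were seen.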

Additional observations from a re-analysis of the deposited data

How the results depend on the processing

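Under every alternative run, the log2 ratios of the summed level between the libraries stayed below 0 in RPM-like cells (12 settings, -0.77 to -0.48) and EBI-like cells (11, -0.88 to -0.53), the median log2 ratio stayed between -0.58 and -0.30 (13), and the RPM-like level stayed 3.64-fold to 4.42-fold above B cells in the wild-type-labelled library and 3.37-fold to 3.99-fold in that labelled SCD. Under these settings no member past 1.5-fold changed its sign, while in the gate 7 of 12 stayed past that limit. Within clusters 6 and 23, which are not among these settings, the log2 ratio of Neu1 was below 0, with intervals that included 0. Values outside the counting interval follow as log2 ratios. In RPM-like cells the sum was -0.60 with a minimum of 200 genes per cell, -0.56 with each library clustered on its own, -0.48 in a gate without clustering (4575 and 1874 cells, at least 1 UMI of Spic and 4 of Vcam1 after thinning), -0.63 without hemoglobin, mitochondrial, ribosomal and immunoglobulin UMIs in the total, -0.62 as the mean of per-cell CPM, -0.77 relative to the median of all genes and -0.60 with B-cell CPM subtracted. The median was -0.58 relative to all genes. In EBI-like cells the sum was -0.88 with 200 genes, -0.67 with doublets left out, -0.67 at resolution 0.5, -0.65 at resolution 2, -0.53 with separate clustering, -0.54 with the reduced total, -0.73 as the mean per cell, -0.66 relative to all genes and -0.79 with B-cell CPM subtracted. The RPM-like level over B cells was 1.87 in the gate, 1.87 with the reduced total and 2.14 as the mean per cell in the wild-type-labelled library, and 1.93 with 200 genes, 1.99 without doublets, 1.99 with separate clustering, 1.88 in the gate, 1.75 with the reduced total and 1.90 as the mean per cell in that labelled SCD. The number of genes lower by 1.5-fold was 6 in the gate in place of 12 and 10 to 16 otherwise, and the number higher was 0 with the reduced total, 0 relative to all genes, 2 as the mean per cell and 3 with B-cell CPM subtracted in place of 1, and the cause was not tested. The share of all genes past 1.5-fold was computed only for the main setting and relative to all genes, so the other counts have no background. Chosen after seeing the data, leaving Psap out gave -0.44 in RPM-like and -0.61 in EBI-like cells, and 1.82 and 1.70 over B cells. Cluster 4 or cluster 6 alone in the wild-type-labelled library gave -0.53 and -0.63. Leaving out cells whose barcode both libraries shared moved no value beyond its interval. No paired analysis was possible because there was 1 mouse per group. With 1 library per group, depth limits single genes of few UMIs, such as Gla and Atp6v0d2, and no interval covers the spread between mice.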
